A study of Mus musculus with 3 samples.

Results

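Rab genes encode the small GTPases that give membranes of the secretory and endocytic pathways their identity. The set taken here held every gene named Rab followed by a number, with at most a letter and a further digit, that had at least 1 protein-coding transcript, without any cut on expression. It came to 59 genes of 55536 gene entries, of which 21901 had a protein-coding transcript. Polyadenylated RNA was sequenced from 3 libraries of macrophages grown from bone marrow of C57BL/6J mice, with no modified allele named in the labels. All 3 received a stimulus at a dose of 100 ng/mL for 480 minutes. Lipid A, a part of bacterial lipopolysaccharide, is given as this stimulus in the sample descriptions, but lipoprotein A in the treatment fields. The libraries, called replicates 1, 2 and 3, form 1 group of separate biosamples under 1 shared donor identifier, and sex and age were not collected. No untreated cells were among the samples, so values are levels after stimulation and no change from rest can be read from them. Whether the biosamples came from separate mice is not stated, so the spread between libraries may be partly technical.

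A Rab protein switches between a GDP-bound form held in the cytosol and a GTP-bound form on a membrane, where it recruits effectors such as tethers and motors. Guanine nucleotide exchange factors turn it on, GTPase-activating proteins turn it off, and lipid groups on cysteines at its end anchor it. In macrophages, Rab proteins are known for phagosome maturation, antigen handling, receptor recycling and the delivery of cytokines and receptors to the surface.

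The libraries held 26589042, 34344922 and 48356527 expected counts on gene entries. All 9 macrophage markers, among them the CSF1 receptor gene Csf1r, were detected in every library. Summed markers of several other cell types were highest in replicate 2. The 10 neutrophil markers, 2 of them detected, summed to 23.1, 422 and 21.5 TPM in replicates 1, 2 and 3, and all 10 were highest in replicate 2. Of these, Elane, Mpo, Ly6g and Retnlg were at 0 in replicates 1 and 3. The 6 platelet and megakaryocyte markers, 1 of them detected, summed to 229.8, 872 and 224 TPM. Pf4 alone gave 228, 859 and 223 TPM of these sums. The 7 osteoclast markers, 3 of them detected, summed to 108, 306 and 165 TPM, and 5 of the 7 were highest in replicate 2. None of 6 mast cell and basophil or 8 B and T cell markers was detected. In such bulk RNA, fewer cells of a type and less RNA per cell cannot be told apart.

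Most Rab genes were expressed, and a few carried much of the total. Levels are given in TPM, which divides counts by transcript length and scales each library to the same sum of transcripts, so different genes can be compared. With detection set at 1 TPM or more in all 3 libraries, 40 of 59 Rab genes were detected, beside 42.2% of all protein-coding genes. Another 14 had counts below that threshold and 5 had none. The median over all 59 was 15.0 TPM, against 0.28 TPM over all protein-coding genes. Among detected genes only, the medians were 72.8 TPM for Rab genes and 14.9 TPM for protein-coding genes. On the scale log2(mean TPM + 0.1) the median of the 59 was 3.92 ± 0.05 (SD over libraries, n = 3) and that of protein-coding genes was -1.40. Together the 59 genes summed to 3554, 3552 and 3463 TPM in replicates 1, 2 and 3. The 2 highest genes held 23.3% of this sum, the 5 highest 41.0% and the 20 highest 84.8%. These shares, and those of the roles below, use the deposited TPM and were not computed with other transcript lengths.

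**Figure D1:**
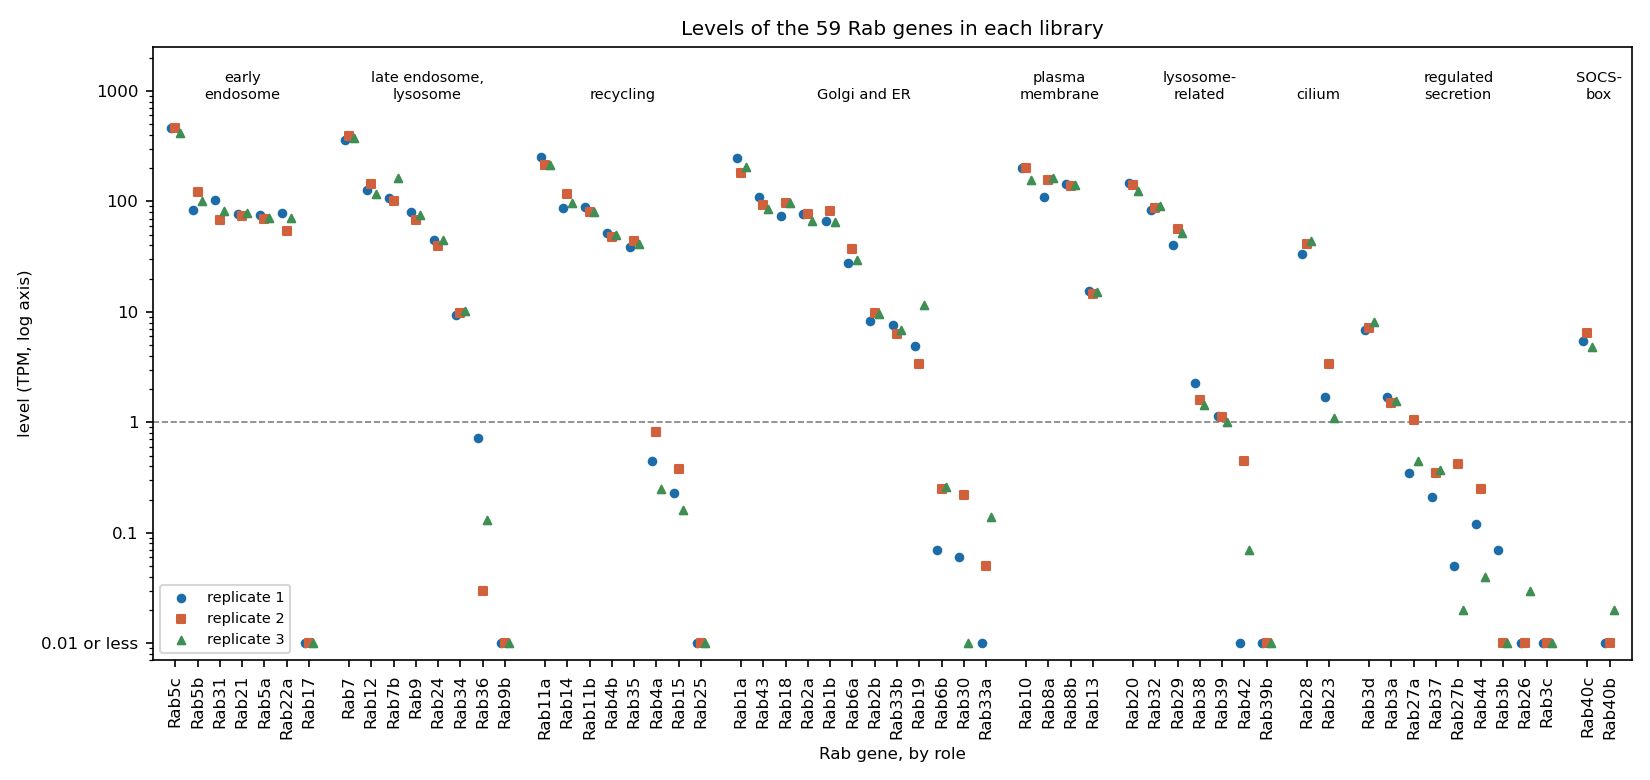
Level of each of the 59 Rab genes in TPM on a log axis, with 1 point per library (circle, square and triangle for replicates 1, 2 and 3), arranged by the role each gene is known for. The dashed line marks 1 TPM, and values at or under 0.01 TPM are drawn at 0.01. Rab5c and Rab7 lie at the top, and 7 of the 9 regulated secretion genes were not detected.

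Early endosome Rabs held the largest share of the sum among the 9 roles, 24.1%, with 6 of 7 genes detected. Rab5 proteins drive the fusion of early endosomes and young phagosomes. Rab5c (ENSMUSG00000019173.11, chromosome 11, 100715009 to 100738215, minus strand) was the highest Rab gene, at 466, 461 and 415 TPM in replicates 1, 2 and 3, or 447 ± 28.4 TPM (SD, n = 3). Replicates 1 and 2 lay close together and replicate 3 slightly below. Its paralog Rab5b stood at 82.9, 122 and 101 TPM and Rab5a at 76.0, 69.5 and 70.3 TPM. Rab5b was lowest in replicate 1, where it came near Rab5a, and Rab5a varied little. Rab31 and Rab22a, close relatives that act in traffic to and from early endosomes, had 104, 68.3 and 81.8 TPM and 77.9, 54.1 and 70.8 TPM, both lowest in replicate 2. Rab21, which traffics integrins, stood at 76.8 ± 2.49 TPM (SD, n = 3). Rab17, known from epithelial cells, had no counts.

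Late endosome, lysosome and autophagy Rabs followed with 21.4% of the sum and 6 of 8 genes detected. Rab7, which directs late endosomes and phagosomes to fuse with lysosomes (ENSMUSG00000079477.9, chromosome 6, 87999106 to 88045270, minus strand), stood at 361, 390 and 372 TPM, or 374 ± 14.4 TPM (SD, n = 3), the second highest level. The 3 libraries differed little. Rab12, which sends receptors from recycling endosomes to lysosomes, had 127, 144 and 116 TPM. Rab7b, which acts between late endosomes and the Golgi (ENSMUSG00000052688.12, chromosome 1, 131688695 to 131715439, plus strand), had 108, 102 and 163 TPM, with replicate 3 well above the others. Rab9, which returns cargo from late endosomes to the Golgi, had 74.3 ± 6.28 TPM and Rab24, linked to autophagy, 42.8 ± 2.67 TPM (SD, n = 3). Rab34, which places lysosomes near the nucleus, had 9.81 ± 0.47 TPM. Its paralog Rab36 read 0.72, 0.03 and 0.13 TPM from at most 6 counts per library, and Rab9b had no counts.

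Recycling Rabs held 14.3% of the sum, with 5 of 8 genes detected. This share rests on the deposited lengths. With the length of the longest protein-coding transcript, Rab11a stood at a mean of 68.7 TPM and Rab11b at 21.2 TPM. Rab11a, which returns receptors from recycling endosomes to the surface (ENSMUSG00000004771.12, chromosome 9, 64715299 to 64737758, minus strand), had 254, 213 and 214 TPM. Its paralog Rab11b had 89.4, 80.7 and 80.5 TPM. For both genes replicate 1 was highest and replicates 2 and 3 nearly equal. Rab14, which moves cargo between Golgi and endosomes, had 87.6, 116 and 97.7 TPM, Rab4b had 50.03 ± 2.19 TPM and Rab35 had 41.3 ± 2.26 TPM (SD, n = 3). Rab4a, the other fast-recycling Rab4 gene, was not detected, at 0.45, 0.82 and 0.25 TPM. Rab15 was also not detected, at 0.23, 0.38 and 0.16 TPM, and Rab25, an epithelial relative of Rab11, had no counts.

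Plasma membrane delivery Rabs held 13.8% of the sum in only 4 genes, all detected. Rab10, known for carrying Toll-like receptor 4 to the macrophage surface (ENSMUSG00000020671.9, chromosome 12, 3247428 to 3309969, minus strand), had 199.5, 202.7 and 156 TPM, with replicate 3 lowest. Rab8a, which acts at ruffles and macropinosomes (ENSMUSG00000003037.16, chromosome 8, 72161200 to 72183904, plus strand), had 109.9, 158 and 162 TPM, and Rab8b (ENSMUSG00000036943.9, chromosome 9, 66843664 to 66919687, minus strand) 143, 137 and 141 TPM. In deposited TPM, replicate 1 was low for Rab8a and not for Rab8b. The scaled counts of Rab8a were 5445, 4995 and 5476, lowest in replicate 2. With the length of the longest protein-coding transcript, Rab8a stood at a mean of 51.0 TPM, so the share of this role rests on the deposited lengths. Rab13, a relative of Rab10 known from cell junctions, had 15.0 ± 0.52 TPM (SD, n = 3). An antisense gene, Rab10os, shares 143 of the 3513 exon bases of Rab10. Whether the libraries kept strand is not stated, so reads from these bases cannot be told apart.

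Golgi and ER transport Rabs, with 9 of 12 genes detected, held 16.9% of the sum. Rab1a, which tethers vesicles from the ER to the Golgi (ENSMUSG00000020149.17, chromosome 11, 20201432 to 20226856, plus strand), had 248, 180.2 and 204 TPM, and Rab1b 66.2, 82.0 and 65.7 TPM. The order of the libraries was not the same for both: replicate 2 was lowest for Rab1a and highest for Rab1b. Rab43, which acts in Golgi transport, had 109, 93.3 and 85.01 TPM, and Rab18, found on ER and lipid droplets, 73.6, 96.4 and 96.2 TPM. Rab2a, which acts between ER and Golgi, had 73.6 ± 6.12 TPM and its paralog Rab2b 9.27 ± 0.81 TPM (SD, n = 3). Rab6a, the Rab of transport within and from the Golgi, had 27.9, 36.7 and 29.6 TPM, while Rab6b, known from brain, was not detected at 0.07, 0.25 and 0.26 TPM. Rab33b, which acts at the Golgi and in autophagy, had 6.93 ± 0.60 TPM, and Rab33a read 0, 0.05 and 0.14 TPM. Rab30 read 0.06, 0.22 and 0.01 TPM.

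Rabs of lysosome-related organelles and phagosomes held 7.88% of the sum, with 5 of 7 genes detected. Rab20, which acts on maturing phagosomes (ENSMUSG00000031504.6, chromosome 8, 11453518 to 11478710, minus strand), had 148, 142 and 125 TPM. Rab32, known for melanosome biogenesis and for defence against bacteria in vacuoles, had 84.2, 86.9 and 90.6 TPM. Rab20 was lowest in replicate 3, and Rab32 was near the same value in every library. Rab38, the melanosome paralog of Rab32, had 2.27, 1.58 and 1.44 TPM, Rab29 had 49.2 ± 8.02 TPM and Rab39 had 1.09 ± 0.07 TPM (SD, n = 3). Rab42 read 0, 0.45 and 0.07 TPM, and Rab39b, a gene known from neurons, had no counts.

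Rabs of regulated secretion were the least expressed role beside the SOCS-box Rabs. Only 2 of 9 genes were detected, and the role held 0.291% of the sum. Rab3d, a Rab of secretory granules, had 6.89, 7.15 and 8.12 TPM and Rab3a, known from synaptic vesicles, 1.71, 1.51 and 1.55 TPM. In TPM neither gene separated the libraries by much. Rab3a rested on 35, 38 and 43 counts, which were 49.8, 37.9 and 33.2 once scaled between libraries. Rab27a, which docks lysosome-like granules and exosome-bearing organelles, read 0.35, 1.05 and 0.45 TPM. Rab27b read 0.05, 0.42 and 0.02 TPM from 2, 25 and 3 counts, and Rab37 0.21, 0.35 and 0.37 TPM. Rab44, known from granules of bone marrow cells, read 0.12, 0.25 and 0.04 TPM. Rab27a, Rab27b and Rab44 were highest in replicate 2, the library with the highest neutrophil and platelet marker sums, and the part of such cells in these values was not tested. Rab3b and Rab26 had 1 count each over the 3 libraries, and Rab3c, a neuronal gene, had none.

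Of the remaining roles, both Rabs of cilium formation and hedgehog signalling were detected, Rab28 at 39.5 ± 5.22 TPM and Rab23 at 1.68, 3.34 and 1.10 TPM. Rab23 lay near the threshold, with a mean of 0.65 TPM when the length of its longest protein-coding transcript was used. Rab40c, a Rab with a SOCS box that recruits a ubiquitin ligase, had 5.40, 6.39 and 4.76 TPM, while Rab40b had 1 count in all. For the 5 genes without counts (Rab17, Rab25, Rab39b, Rab3c and Rab9b), 3 counts in the library with the highest such limit would give from 0.046 TPM for Rab9b to 0.32 TPM for Rab25, which covers counting error only.

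Most neighbours in the order of the detected genes could not be separated. Of 39 pairs of neighbours in the order of mean TPM, 7 were apart, meaning that the log2 difference had the same sign in all 3 libraries and a mean over 2 SD. Rab5c lay above Rab7 by 0.26 ± 0.11 (log2, SD, n = 3) and Rab7 above Rab11a by 0.72 ± 0.19. From Rab11a at rank 3 to Rab6a at rank 29, no neighbours were apart. Below that, 5 of 11 neighbours were apart, among them Rab6a above Rab13 by 1.05 ± 0.26 and Rab13 above Rab34 by 0.61 ± 0.09, while Rab33b and Rab19, and Rab19 and Rab40c, were not. In a second deposited quantification, which used no alignment file, 39 of 40 detected genes kept their rank within 3 places, and the largest shift was 4. There Rab5c and Rab7 lay closer, at 334, 422 and 340 TPM against 292, 372 and 326 TPM. With the length of the longest protein-coding transcript, Rab11a went from rank 3 to 19.

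Paralog pairs were compared for which of the 2 genes had the higher RNA level. Of 24 pairs, 22 were apart by the same rule, applied to log2((TPM + 0.1)/(TPM + 0.1)). The 22 include the 10 pairs with 1 gene detected and the 2 pairs with none, where the pseudocount weighs most. No share was computed over other pairs of genes, so whether this count is particular to paralogs was not tested. In 12 pairs both genes were detected, and 10 of these were apart. An exact sign-flip permutation test over 3 libraries cannot go below p = 0.25, so no p is given for a pair. Rab32 exceeded Rab38 by 5.58 ± 0.38 (log2, SD, n = 3), Rab10 exceeded Rab13 by 3.62 ± 0.24 and Rab2a exceeded Rab2b by 2.98 ± 0.20. In the Rab5 family, Rab5c exceeded Rab5a by 2.63 ± 0.09 and Rab5b by 2.15 ± 0.30. Rab5a and Rab5b were not apart: Rab5a was lower in all 3 libraries, by 0.12, 0.81 and 0.52, with a mean difference of -0.48 ± 0.34. Smaller differences that were apart were those of Rab3d over Rab3a (2.15 ± 0.18), Rab7 over Rab7b (1.63 ± 0.39), Rab1a over Rab1b (1.56 ± 0.39), Rab11a over Rab11b (1.44 ± 0.06) and Rab31 over Rab22a (0.32 ± 0.10). With the longest coding transcript's length, Rab22a minus Rab31 went to -1.29 and Rab7 minus Rab7b to 2.41. In the second quantification Rab22a minus Rab31 was -0.14.

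**Figure D2:**
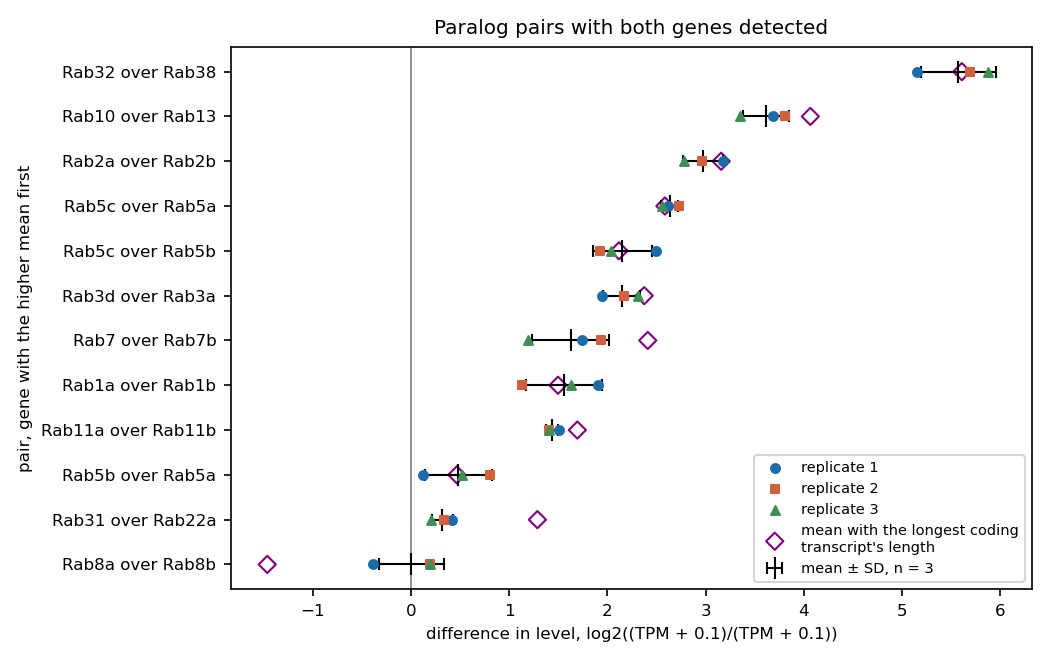
Log2 difference in level between the genes of the 12 paralog pairs with both genes detected, with 1 point per library, a bar for the mean ± SD (n = 3) and an open diamond for the mean when the length of the longest protein-coding transcript is used. The Rab8a and Rab8b points lie on both sides of 0 around a mean of 0.01, and their diamond lies at -1.46.

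In 10 further pairs only 1 gene was detected. Rab4b stood at 50.03 TPM against 0.51 TPM for Rab4a, Rab6a at 31.4 TPM against 0.19 TPM for Rab6b, and Rab33b at 6.93 TPM against 0.063 TPM for Rab33a. Each of these differences had the same direction in every library. Against genes without counts, taken at the level of 3 counts, the deposited TPM put Rab9 at least 1599.8-fold above Rab9b. On the same basis Rab11a was at least 703-fold above Rab25 and Rab39 at least 19.9-fold above Rab39b. The Rab11a bound holds for deposited lengths only, since the longest coding transcript's length gave Rab11a 68.7 TPM in place of 227. Rab3c had no counts in the main tables, but the second quantification gave it 0.051, 0.023 and 0.079 TPM, and gave Rab9b 0, 0.020 and 0.045 TPM. In 2 pairs, Rab27a with Rab27b and Rab26 with Rab37, neither gene was detected. All 24 pairs had the same direction in that quantification.

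Paralogs were far from identical in sequence. Identity over all aligned coding columns, gaps included, ran from 53.9% for Rab26 and Rab37 to 78.4% for Rab6a and Rab6b. It was taken on each gene's longest complete coding sequence, so unequal lengths lower it: Rab26 had 295 codons and Rab37 had 223. The longest identical run between any transcripts of a pair was 38 bases, in Rab1a and Rab1b. The deposited posterior SD of the count was under 1% of the count for all 40 detected genes in all libraries. The ends of the coding sequences of 3 paralog pairs compared above are shown because they carry the lipid anchor and show how far paralogs drift. These are the last 36 coding bases before the stop codon of the longest complete coding transcript in GENCODE M21 (mm10), with cysteine codons in capitals, at chr10:128679533-128679568 (minus strand) for Rab5b, chr17:53506391-53506426 (plus) for Rab5a, chr6:88000438-88000473 (minus) for Rab7, chr1:131711659-131711694 (plus) for Rab7b, chr8:72180099-72180134 (plus) for Rab8a and chr9:66847722-66847757 (minus) for Rab8b.
Rab5b: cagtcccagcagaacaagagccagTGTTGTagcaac
Rab5a: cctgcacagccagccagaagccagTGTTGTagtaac
Rab7: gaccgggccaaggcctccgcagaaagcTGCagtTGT
Rab7b: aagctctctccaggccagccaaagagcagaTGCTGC
Rab8a: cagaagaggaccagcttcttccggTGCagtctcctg
Rab8b: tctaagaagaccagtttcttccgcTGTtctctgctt

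Rab5a and Rab5b end in 2 adjacent cysteine codons followed by 2 others, Rab7 in cysteine codons 2 apart, Rab7b in 2 adjacent ones, and Rab8a and Rab8b in 1 cysteine codon that precedes the last 3 codons. Over the 59 genes, 20 ended like Rab7, 15 like Rab7b, 15 had 2 adjacent cysteine codons followed by 1 to 3 others and 9 had 1 cysteine codon that precedes the last 3 codons. Detected genes numbered 10 of 20, 13 of 15, 9 of 15 and 8 of 9 in these classes, in that order, with no test made.

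For some Rab genes the level rested on which transcript the reads were given to. Of 34 detected Rab genes with 2 or more annotated transcripts, 29 had the same transcript highest in all 3 libraries, beside 86.3% of detected protein-coding genes with 2 or more transcripts. In 2 of the 29, Rab8a and Rab23, the highest transcript was not annotated as protein-coding. For Rab23 this was the 444-base Rab23-210, with only 3.89, 9.08 and 2.15 counts. The second quantification put the whole Rab23 gene at 0.96, 2.85 and 1.13 TPM. Transcripts not annotated as protein-coding held on average over 20% of the TPM in 5 detected genes: Rab23, Rab8a, Rab11b (26.2%), Rab18 (24.1%) and Rab40c. The genes with the most even split between their first 2 transcripts were Rab18, Rab22a, Rab6a, Rab29 and Rab3a. Of these, Rab29 alone kept 1 transcript highest in every library, Rab29-201 with 58.3%, 51.1% and 51.9% of the gene's TPM against 41.7%, 30.9% and 35.0% for Rab29-202. For Rab3a the highest was Rab3a-201 in replicates 2 and 3, with 55.4% and 74.7%, and it held none in replicate 1, from at most 43 counts on the whole gene. In Rab40c, with 205, 306 and 333 counts, reads were assigned to different transcripts of near-equal length, Rab40c-201 (2466 bases) and Rab40c-209 (2456 bases). Rab40c-201 held 68.3% and 95.6% in replicates 1 and 3 and 0 in replicate 2. There Rab40c-209, listed at 0 in the others, held 56.3%. The second quantification gave Rab40c-209 the highest share in replicate 2 as well, at 77.8%.

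Rab8a shows how a short transcript moves a gene's TPM. Rab8a-202, a 542-base transcript annotated as a retained intron, had 61.9, 113 and 116 TPM, and the 4550-base coding transcript Rab8a-201 had 47.2, 42.9 and 44.7 TPM. The coding transcript was nearly level across libraries and the retained-intron transcript was low in replicate 1. Rab8a-202 held 56.3%, 71.5% and 71.6% of the TPM but only 8.02%, 13.7% and 13.7% of the gene's expected counts, since its short length raises the TPM per count. The second quantification gave it 63.3%, 70.2% and 70.8% of the TPM. With the length of the longest protein-coding transcript in place of the deposited effective length, Rab8a stood at 51.0 ± 1.08 TPM (SD, n = 3) in place of 143 ± 29.0, its rank went from 6 to 20, and it lay below Rab8b by 1.46 ± 0.02 on the log2 scale. The deposited values put this pair at 0.01 ± 0.33, not apart. The transcripts part at the end of the exon at chr8:72175840-72175929 (plus strand, mm10, GENCODE M21). The last 30 bases of that exon are shown in lower case, followed in capitals by the next 30 bases of each transcript, the following exon at chr8:72176323-72176352 in Rab8a-201 and the retained intron at chr8:72175930-72175959 in Rab8a-202.
Rab8a-201: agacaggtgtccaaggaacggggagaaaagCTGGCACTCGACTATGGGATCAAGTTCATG
Rab8a-202: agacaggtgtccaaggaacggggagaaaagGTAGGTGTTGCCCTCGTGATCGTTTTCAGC

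Rab8a-202 goes on for 128 bases into this intron, which opens with the GT of a 5′ splice site. Other genes whose level rested on transcript length were Rab11a, Rab18, Rab11b and Rab7b. Rab11a-201, 595 bases long and annotated with an incomplete coding end, held 45.7 ± 3.18% of the TPM and 23.5 ± 2.61% of the counts (SD, n = 3). The 2336-base Rab11a-208 held 18.6 ± 2.61% of the TPM and 61.2 ± 5.15% of the counts. With the longest coding transcript's length Rab11a went from rank 3 to 19, at 68.7 TPM in place of 227, Rab18 from 14 to 29, Rab11b from 17 to 28 and Rab7b from 10 to 18. In Rab18, the 354-base Rab18-204, annotated for nonsense-mediated decay, was highest in replicate 2, at 28.2 TPM from 61.3 counts. Rab18-205 of 6515 bases held 15.0 ± 1.76% of the TPM and 68.4 ± 2.75% of the counts. Rab22a showed the same contrast, with Rab22a-202 of 849 bases at 60.4%, 44.8% and 54.8% of the TPM and 11.6%, 6.22% and 9.03% of the counts. Rab5c and Rab7 were the 2 highest genes with either length.

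**Figure D3:**
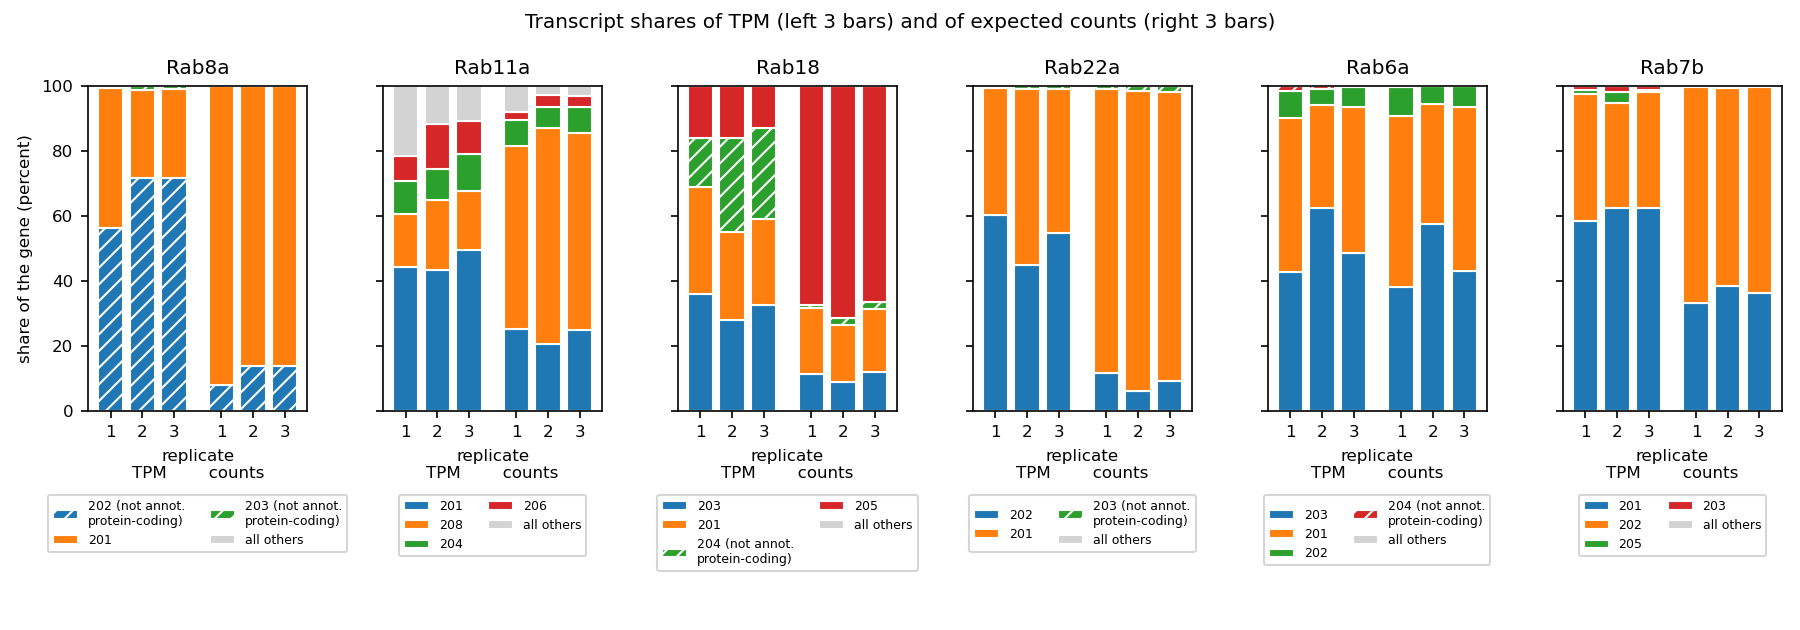
Share of each gene's TPM (left 3 bars, replicates 1, 2 and 3) and of its expected counts (right 3 bars) on its 4 highest transcripts in percent, for 6 Rab genes. Hatched parts are transcripts not annotated as protein-coding. In Rab8a the hatched Rab8a-202 fills 56.3% to 71.6% of the TPM bars and 8.02% to 13.7% of the count bars.

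Rab6a makes alternative proteins from a pair of exons of which a transcript holds 1, and both forms were present. The upstream exon (chr7:100629666-100629771) is in Rab6a-203 and Rab6a-202, and the downstream exon (chr7:100629838-100629943) in Rab6a-201, both on the plus strand in mm10 and GENCODE M21. They are shown because a transcript holds 1 or the other; both are 106 bases long, and capitals mark the 30 bases at which they differ, which leaves 71.7% identity.
Rab6a upstream exon: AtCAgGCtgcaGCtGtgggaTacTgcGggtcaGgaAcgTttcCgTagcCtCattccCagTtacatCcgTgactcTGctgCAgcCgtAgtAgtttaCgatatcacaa
Rab6a downstream exon: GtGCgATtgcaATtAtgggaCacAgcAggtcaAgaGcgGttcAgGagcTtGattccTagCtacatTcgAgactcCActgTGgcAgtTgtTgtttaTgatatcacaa

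Transcripts with the upstream exon had 14.2, 24.7 and 16.1 TPM and those with the downstream exon 13.2, 11.7 and 13.3 TPM. The downstream form was nearly level, and the upstream form was high in replicate 2, where the neutrophil and platelet marker sums were also high, and their part in this was not tested. The upstream exon held 51.8%, 67.9% and 54.7% of the TPM on transcripts with either exon, or 58.2 ± 8.59% (SD, n = 3). In the second quantification these shares were 49.4%, 61.1% and 48.8%, so the upstream form was ahead in replicate 2 only. Rab6a-203 and Rab6a-201 also differ at their 5′ ends, and reads there bear on these shares too.

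Most Rab genes differed between libraries by more than counting error, and for most the difference was small. A chi-square test (2 degrees of freedom) asked, for each gene with a mean count of 10 or more, whether expected counts scaled by TMM, a trimmed mean of ratios that sets a common scale, were equal in the 3 libraries. It compares libraries of 1 group with counting error, not conditions. With Benjamini-Hochberg adjustment at 0.05, 37 of 45 tested Rab genes were called, beside 70.9% of all tested genes. The range, the highest over the lowest scaled value, was over 1.5-fold for 11 of the 45, beside 37.9% of all tested genes. Its median was 1.19-fold for Rab genes and 1.37-fold for all tested genes. The median coefficient of variation of TPM was 9.56% for detected Rab genes and 14.9% for detected protein-coding genes. These comparisons were not matched for level. Detected Rab genes had a median of 72.8 TPM, against 14.9 TPM for detected protein-coding genes. Counting error weighs more at low counts, so whether Rab genes vary less than genes of like level was not tested. With a count minimum of 100, 31 of 36 Rab genes were called, beside 80.8% of all tested genes. Of the 37 called genes, 16 were highest in replicate 1, 11 in replicate 2 and 10 in replicate 3, beside 34.7%, 39.7% and 25.6% of all called genes. Without replicate 2, 22 of 44 tested Rab genes were called, beside 42.7% of all tested genes. With library totals in place of TMM the 36 called Rab genes split into 10, 19 and 7, beside 26.1%, 54.9% and 19.0% of all called genes.

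The 6 genes with the largest coefficient of variation of TPM at a mean count of 100 or more were Rab19, Rab7b, Rab31, Rab8a, Rab5b and Rab22a. Rab19, a Rab reported at the Golgi (ENSMUSG00000029923.4, chromosome 6, 39381175 to 39390380, plus strand), had 4.86, 3.36 and 11.5 TPM from 111, 102 and 474 counts. Its scaled counts were 158, 102 and 366, so replicate 3 was far above both others, 3.60-fold above replicate 2 (chi-square test, Benjamini-Hochberg adjusted p = 1.61e-41). Between replicates 1 and 2 alone the range was 1.51-fold. Rab7b followed with scaled counts of 6623, 5354 and 9598, again highest in replicate 3, with a range of 1.79-fold, or 1.21-fold without replicate 3. Both kept their call, with replicate 3 highest, under each other scaling, count minimum and quantification tried and without replicate 1 or 2.

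Rab31 was highest in replicate 1, with scaled counts of 8211, 5107 and 6410 and a range of 1.61-fold (chi-square test, Benjamini-Hochberg adjusted p = 2.36e-134). Rab5b was highest in replicate 2, with scaled counts of 5921, 8223 and 7125 and a range of 1.39-fold. The TPM of Rab8a and Rab22a had coefficients of variation of 20.2% and 18.1%, yet their scaled counts had ranges of 1.10-fold and 1.16-fold. For Rab8a they were 5445, 4995 and 5476, nearly equal, and its call was lost with library totals, with the second quantification and without replicate 2. The call of Rab22a was lost without replicate 2, where its range was 1.01-fold. Rab7 was not called: its scaled counts were 16527, 16646 and 16572, within 1.01-fold (chi-square test, Benjamini-Hochberg adjusted p = 0.848).

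**Figure D4:**
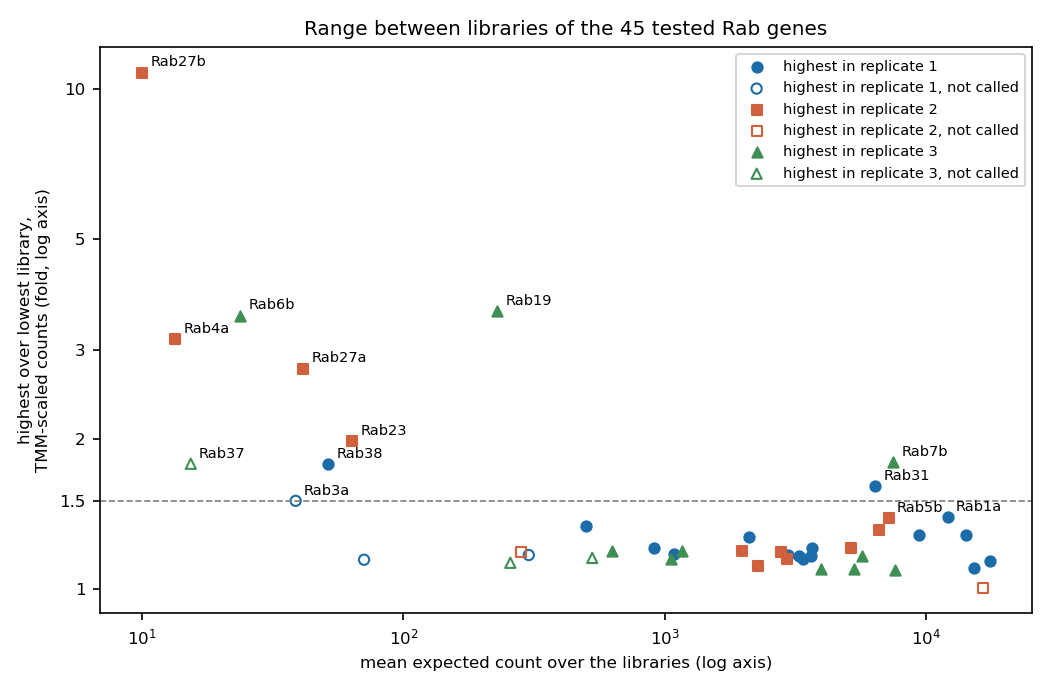
Range between libraries (highest over lowest TMM-scaled count, fold, log axis) against mean expected count (log axis) for the 45 tested Rab genes, with the symbol giving the highest library and open symbols genes that were not called. The dashed line marks 1.5-fold. At high counts, Rab7b (1.79-fold) and Rab31 (1.61-fold) stand above it, and Rab7 lies at 1.01-fold.

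Low genes made up several of the largest ranges. Rab27b had scaled counts of 2.85, 24.9 and 2.32, Rab27a 24.2, 66.8 and 30.9, Rab23 47.0, 92.8 and 50.2 and Rab4a 12.8, 21.9 and 6.95. All 4 were called and highest in replicate 2, as were the neutrophil and platelet marker sums, whose part in these values was not tested. Without replicate 2, Rab27a and Rab23 were not called, with ranges of 1.28-fold and 1.07-fold, and Rab27b and Rab4a had too few counts to be tested. The range of Rab27b was 10.8-fold in the main tables and 2.28-fold in the second quantification. Rab6b, at 8.55, 25.9 and 30.1 scaled counts, was highest in replicate 3.

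Most genes listed for the machinery that loads, recycles and switches Rabs were detected. Of 111 genes listed by function, 87 were detected, beside 42.2% of all protein-coding genes. Of 97 tested, 68 were called as varying, beside the 70.9% above. For prenylation and recycling, 7 of 8 genes were detected, among them the GDP dissociation inhibitor Gdi2 (260 ± 33.7 TPM, SD, n = 3) and the prenylated Rab acceptor Rabac1 (78.8 ± 8.22 TPM). Among exchange factors 24 of 28 were detected, led by Rin2, which acts on Rab5 (157 ± 7.09 TPM), Dennd1a, which acts on Rab35 (118 ± 13.0 TPM), and Ccz1, part of the Rab7 exchange complex (81.5 ± 7.37 TPM). Of the GTPase-activating proteins 27 of 33 were detected, led by Tbc1d13 (281 ± 46.4 TPM), Tbc1d1 (62.5 ± 7.50 TPM) and Tbc1d9b (52.5 ± 8.06 TPM). Of the effectors 29 of 42 were detected, led by Rilpl2, which binds Rab8 and Rab10 (149.7 ± 27.5 TPM), the motor Myo5a (100.1 ± 7.81 TPM) and the Rab5 effector Ankfy1 (62.2 ± 6.25 TPM). The median of all 111 was 10.7 TPM, against 0.28 TPM over all protein-coding genes.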

How the data were processed

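Polyadenylated RNA of 3 libraries in 1 group was analysed. The authors quantified reads on mm10 and GENCODE M21, per a readme in each sample's deposit. The aligner and the programs were not given in the sources used here. Gene and transcript tables hold, per the file headers, expected counts, which are fractional counts assigned by a model from a transcriptome alignment, with no scaling between libraries. The TPM values are the authors' own, as deposited. The deposited percent values give each transcript's share of a gene's TPM. The second quantification, made without an alignment file, has estimated counts and TPM as deposited, summed here per gene.

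Expected counts were rounded before testing. Library totals, from 26589042 to 48356527, set the precision at low counts. Variation between libraries was tested with a chi-square test after TMM scaling (edgeR 4.0.16, R 4.3.3) for each gene whose mean count reached 10, with Benjamini-Hochberg adjustment over all genes tested. Log2 levels used a pseudocount of 0.1 TPM. DESeq2 1.42.0 size factors served as an alternative scaling. The chi-square test was tested on simulated data drawn with counting error only, apart from changes set in some genes. Such data cannot show how it behaves where libraries vary by more than counting error. Sequences came from the GENCODE M21 transcripts; protein sequences were not used here. Python 3.11.15, pandas 2.3.3, scipy 1.17.1, Biopython 1.88 and matplotlib 3.10.9 were used.

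Named with values are the 20 genes with the highest mean TPM, the paralog pair genes with counts, the 6 largest coefficients of variation at a mean count of at least 100, the 5 most even splits between the first 2 transcripts, genes without counts, and the 3 highest of each regulator list. Some items that meet this rule are not reported here. Other members named at low levels, and Rab40c, Rab8a, Rab11a and Rab23 for their transcripts, were chosen after their values were seen. The members, roles, pairs and lists were chosen with earlier results of these data known.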

Additional observations from a re-analysis of the deposited data

Results flagged for a closer look

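Signal was found at 3 loci outside the 59 genes, in noncoding or pseudogene entries named after Rab genes, and these entries are in no comparison above. There are no control samples, so each was set against the level that 3 counts would make, which it exceeded in all 3 libraries. Rab10os, antisense to Rab10 (chromosome 12, 3235504 to 3250377, plus strand), had a mean of 14.3 TPM. Rab11b-ps2 (chromosome 19, 7398424 to 7399077, minus strand) had a mean of 3.56 TPM. Rab7-ps1 (chromosome 9, 54824661 to 54825282, minus strand) had a mean of 2.58 TPM. Both are pseudogenes by name, and how reads are divided between them and Rab11b or Rab7 was not tested.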

How the results depend on the processing

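The count of detected Rab genes ran from 34 at 5 TPM to 40 at 0.5 TPM, with 38 in the second quantification. The median log2 level, 3.92, was 3.999 with a pseudocount of 1 and 4.04 without ribosomal RNA and mitochondrial genes. It was 3.75 in the second quantification, and 3.46 with the longest protein-coding transcript's length, an alternative chosen after seeing the data. Leaving out 1 library gave 3.90 to 3.94. The count of varying Rab genes, 37, was 36 of 45 with library totals (74.0% of all tested genes), 39 of 51 and 31 of 36 with count minimums of 1 and 100 (53.7% and 80.8%), and 22 to 31 with 1 library left out (42.7% to 61.1%). The lowest, 22, came without replicate 2, where 15 of the 37 calls were lost, against 6 and 7 without replicates 1 and 3. The cause was not tested. Paralog pairs apart numbered 22 to 24 with 1 library left out, 23 with the longest transcript's length, and 10 of 12 where both genes had a mean of at least 1 TPM, which leaves fewer pairs. The same transcript was highest for 31 of 34 genes in the second quantification. Rab8a minus Rab8b, not apart at 0.01, was -0.09 without replicate 2 or 3 and -1.46 with the longest transcript's length. No other pair difference changed sign under the alternatives run. No paired analysis was possible because the series has 1 group. With 3 libraries, 1 dose and 1 time, no contrast between conditions exists, and chi-square calls at high counts mark differences as small as 1.09-fold (Rab21).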
